A study of Homo sapiens with 2 samples.

Results

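The BCL2 family decides at the outer membrane of mitochondria whether a stressed cell dies, and 10 of its genes are described here in K562 after 48 h with 1 µM cabozantinib against 48 h with the solvent DMSO. K562 is a human erythroid leukemia line driven by the BCR-ABL1 fusion kinase and is known to lack functional p53. Cabozantinib (XL184) blocks several kinases, MET and the VEGF receptors among them. Both cultures were asynchronous, and RNA was read by strand-specific sequencing. The members were given by name, matched on the symbols of the authors' deposited comparison and joined by Entrez gene ID to the count files, and all 10 were found among 25702 genes. They are the guards BCL2, BCL2L1, MCL1 and BCL2L2, the BH3-only killers BCL2L11, BBC3, PMAIP1 and BMF, and the effectors BAX and BAK1.

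Guards bind and hold back both other classes. BH3-only proteins are made or released under stress and occupy the groove of the guards, and some also touch the effectors directly. Freed BAX and BAK1 form pores through which cytochrome c leaves the mitochondrion and starts the caspases. In erythroid cells BCL-xL, the product of BCL2L1, is known as the main survival factor, and in BCR-ABL1 leukemia cells the loss of BIM, the product of BCL2L11, is known to blunt the response to ABL1 inhibitors. Much of the control of these proteins, above all of MCL1, lies in protein stability, which RNA does not show.

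With 1 library per treatment, differences could not be checked against replicates or tested between the conditions, and no p-value is given. The cabozantinib library held 25505289 counts and the DMSO library 25025243 counts. Levels are given as counts, as CPM (counts in 1e6, on TMM-scaled library sizes) and, to compare genes with each other, as TPM (transcripts in 1e6, from counts per exon length). Calls, higher or lower, required a ratio of cabozantinib over DMSO of at least 1.5-fold (0.58 on the log2 scale) and an exact 95% interval of that ratio without 1. Intervals cover counting error only, not the spread between cultures. In bulk RNA, fewer cells of a type and less RNA per cell cannot be told apart. The 9 erythroid markers examined were present, at 289 to 12751 CPM with cabozantinib and 125 to 5708 CPM in DMSO, and their sum was 37495 CPM with cabozantinib against 13471 CPM in DMSO. Of 9 markers of other cell types, MS4A1 and MPO had 0 counts in both libraries, and the highest was EPCAM at 86.1 CPM with cabozantinib and 70.4 CPM in DMSO. The part of this marker difference in the results below was not tested.

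All 10 members were measured, that is, reached 1 CPM in at least 1 library. By the 1.5-fold rule 1 member, BCL2L11, was higher with cabozantinib and 3 members, BBC3, PMAIP1 and BCL2, were lower. Among all 12536 measured genes the same rule called 8.15% higher and 12.3% lower, or 20.5% in either direction. That is 1022 genes higher and 1543 lower, against 757 higher and 1824 lower when scaled by total counts. With TMM scaling none of the 10 members reached 2-fold, which 2.71% of measured genes passed as higher and 5.76% as lower, 8.47% in all. Scaled by total counts, BBC3 (-1.08), PMAIP1 (-1.06) and BCL2 (-1.06) did pass a log2 size of 1, and so they did in totals without globin and mitochondrial genes (-1.03, -1.01 and -1.01). They also passed it in TPM (-1.17, -1.15 and -1.16), and BBC3 did with upper quartile scaling (-1.01). The median log2 ratio of the members was -0.27, against 0.01 over the whole measured set, and 7 members lay below 0 and 3 above.

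**Figure D1:**
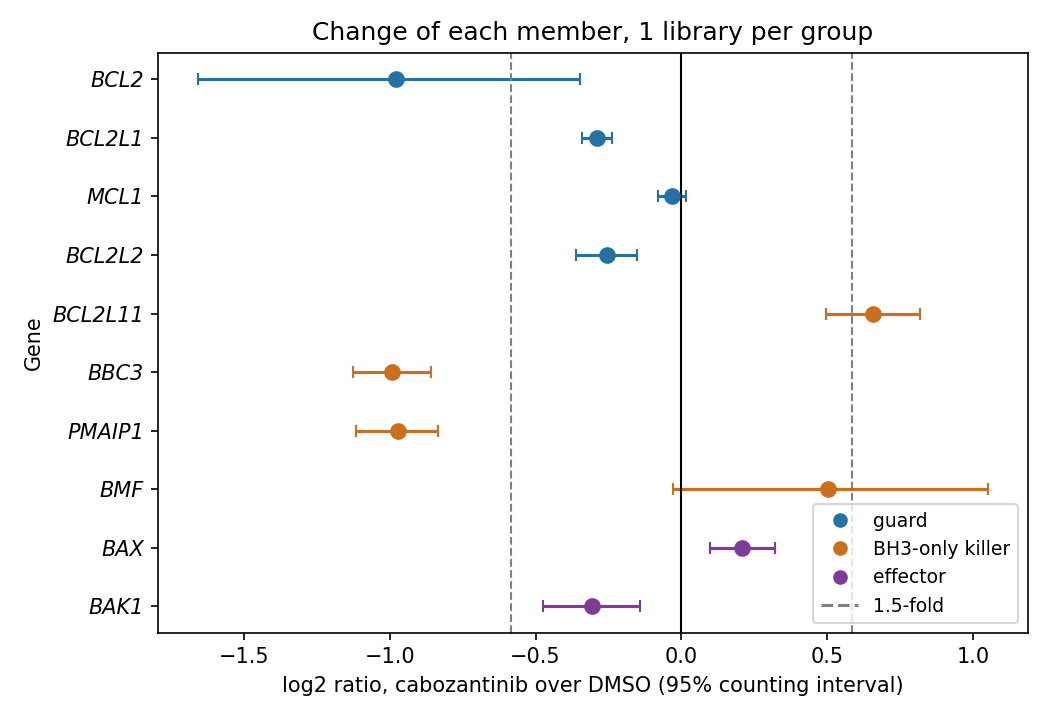
Log2 ratio of each member, cabozantinib over DMSO, with its 95% counting interval and dashed lines at 1.5-fold. BBC3, PMAIP1 and BCL2 lie near -1 and BCL2L11 at 0.66, while with TMM scaling the intervals of MCL1 and BMF include 0.

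MCL1 and BCL2L1 carried the guard class in both libraries. Together they made up 90.6% of the guard TPM with cabozantinib and 90.1% in DMSO. Counts here are per gene, so splice forms of a gene are not told apart in any level or ratio. BCL2L1 (Entrez 598; hg19 chromosome 20, 30252261 to 30310656, minus strand, 3 exon blocks), which encodes BCL-xL, was the most abundant member per length, with 152 TPM under cabozantinib and 209.8 TPM in DMSO. Its counts were 5187 with cabozantinib and 6595 in DMSO, a log2 ratio of -0.29 (-0.34 to -0.24). The shortfall was outside counting error and inside 1.5-fold. MCL1 (Entrez 4170; chromosome 1, 150547034 to 150552136, minus strand, 3 exon blocks), a guard of very short half-life that holds BAK1 and BIM, had 6949 counts with cabozantinib and 7393 in DMSO. With TMM scaling its log2 ratio of -0.03 (-0.08 to 0.02) could not be told from 0 by counting error. Scaled by total counts it was -0.12 (-0.16 to -0.07), and in totals without globin and mitochondrial genes -0.07 (-0.11 to -0.02), both with intervals below 0. MCL1 stood at 130.5 TPM with cabozantinib and 150.5 TPM in DMSO.

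TPM and TMM-scaled CPM differ between the libraries because TPM are shares of all transcripts. On the TPM scale measured genes had a median log2 ratio of -0.16, so a TPM difference between the libraries has to be read against that shift. The globins took 3.84% of counts with cabozantinib and 1.42% in DMSO, and their part in this shift was not tested. Changes are therefore given on the CPM scale and TPM are used to compare genes within a library.

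BCL2L2 (Entrez 599; chromosome 14, 23776012 to 23780968, plus strand, 4 exon blocks), which encodes BCL-w, had 1369 counts with cabozantinib and 1701 in DMSO, which is 55.3 CPM with cabozantinib and 66.0 CPM in DMSO. Its log2 ratio was -0.26 (-0.36 to -0.15), outside counting error and not called. BCL2 itself (Entrez 596; chromosome 18, 60790579 to 60986613, minus strand, 3 exon blocks), the founding guard, had the lowest TPM of the 10 in both libraries, in DMSO with an interval that overlapped that of BMF. BCL2 had 31 counts with cabozantinib and 64 in DMSO, at 0.352 TPM with cabozantinib and 0.787 TPM in DMSO. The difference was 1.97-fold lower with a wide interval of 1.27 to 3.15 at these low counts. On the TPM scale BCL2L1 stood at 433 times the level of BCL2 in the cabozantinib library, against 267 times in DMSO. The ratio of BCL2 over BCL2L1 had a log2 change of -0.70 with a wide interval (-1.32 to -0.08).

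**Figure D2:**
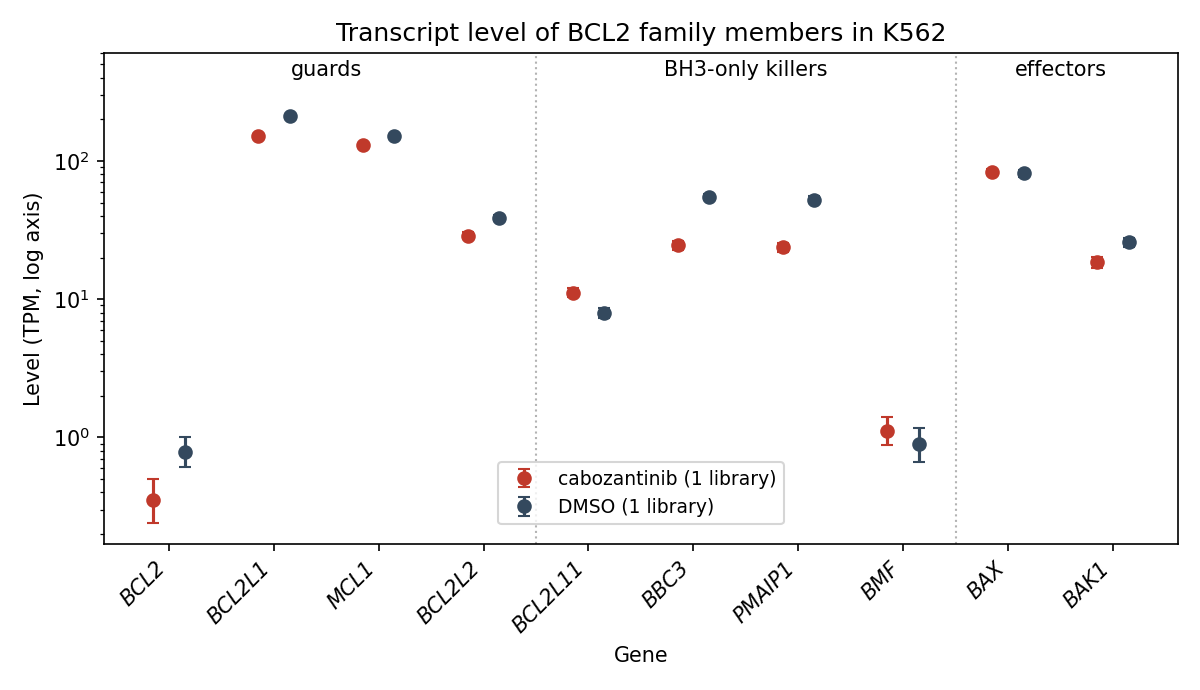
TPM of each member on a log axis in the cabozantinib and DMSO libraries, with exact 95% Poisson intervals. BCL2L1, MCL1 and BAX are the 3 highest members in both libraries, and BCL2 and BMF the lowest.

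The BH3-only killers split. BBC3 and PMAIP1 were lower by nearly the same factor, BCL2L11 was higher, and BMF was scarce. The upstream bases of the 3 killers that were called are shown because these genes, of one class, moved in opposite directions. They are the 250 bases before the start of the gene in RefSeq on GRCh38.p14, 5′ to 3′ on the gene's strand, and capitals mark matches to the motifs named below the sequences.
BCL2L11, chr2:111120664-111120913 (+): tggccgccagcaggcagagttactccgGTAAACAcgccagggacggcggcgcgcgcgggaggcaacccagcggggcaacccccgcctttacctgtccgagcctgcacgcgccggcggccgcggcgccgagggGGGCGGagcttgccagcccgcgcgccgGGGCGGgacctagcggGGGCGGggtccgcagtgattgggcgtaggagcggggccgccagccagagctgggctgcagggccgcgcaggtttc
BBC3, chr19:47232668-47232917 (-): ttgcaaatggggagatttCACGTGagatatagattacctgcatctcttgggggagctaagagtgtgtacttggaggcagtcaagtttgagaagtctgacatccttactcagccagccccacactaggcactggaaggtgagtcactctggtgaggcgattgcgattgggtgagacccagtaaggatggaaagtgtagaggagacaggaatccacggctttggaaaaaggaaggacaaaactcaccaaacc
PMAIP1, chr18:59899746-59899995 (+): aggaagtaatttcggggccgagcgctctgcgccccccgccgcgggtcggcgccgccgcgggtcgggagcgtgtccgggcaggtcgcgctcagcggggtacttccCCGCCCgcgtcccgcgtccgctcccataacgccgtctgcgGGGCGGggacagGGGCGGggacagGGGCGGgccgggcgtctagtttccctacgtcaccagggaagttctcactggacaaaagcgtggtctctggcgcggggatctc
Windows of 300 bases, from 250 before to 50 after a gene start, were searched on both strands for 6 motifs. The FOXO motif was GTAAACA, which FOXO transcription factors bind downstream of insulin and growth factor signals. The STAT motif was TTCNNNGAA, with N for any base, bound by STAT5 and its relatives below cytokine receptors. The stress motif was TGATGNAA, bound by ATF4 and CHOP pairs when amino acids are short or proteins misfold. The GATA motif was AGATAA, the best known binding sequence of the erythroid factor GATA1. The E-box was CACGTG, bound by MYC and other factors of the same class. The GC box was GGGCGG, bound by SP1 at many promoters of housekeeping genes. None of these motifs contains another. The table held 10 windows for 8 members, all but MCL1 and BCL2L2. The BCL2L11 window held a FOXO match that begins 223 bases before the start, a motif present in 3.42% of 35116 RefSeq windows, and 3 GC boxes. The PMAIP1 window held 4 GC boxes, a motif found in 45% of all windows. The BBC3 window held 1 E-box, 232 bases before the start, and no GC box, with a GC content of 49.2% upstream against 72.8% for PMAIP1, 76.8% for BCL2L11 and a median of 58% over all windows. No window of a member held the STAT, stress or GATA letters, which occur in 7.66%, 3.62% and 10.3% of all windows. These matches are letters only and say nothing about binding.

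BBC3 (Entrez 27113; hg19 chromosome 19, 47724079 to 47736023, minus strand, 5 exon blocks) encodes PUMA, which binds every main guard and is a known target of p53, FOXO3 and CHOP. It had 685 counts with cabozantinib and 1417 in DMSO, at 27.7 CPM with cabozantinib and 55.0 CPM in DMSO. BBC3 was 1.99-fold lower (1.81 to 2.18), and 5.82% of measured genes had a lower log2 ratio. The microRNA genes MIR3191, on the same strand, and MIR3190, on the other, lie inside the span of BBC3 and share 0 exon bases with it. MIR3191 had 15 counts with cabozantinib and 22 in DMSO, and MIR3190 had 3 with cabozantinib and 0 in DMSO.

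PMAIP1 (Entrez 5366; chromosome 18, 57567192 to 57571538, plus strand, 2 exon blocks) encodes NOXA, a killer that binds MCL1 in particular and that the stress factor ATF4 is known to induce. It had 611 counts with cabozantinib and 1248 in DMSO, at 24.7 CPM with cabozantinib and 48.4 CPM in DMSO. PMAIP1 was 1.96-fold lower (1.78 to 2.17), with an interval that overlaps that of BBC3. Both genes stood at nearly the same level as well, and in each library their TPM intervals overlapped.

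BCL2L11 (Entrez 10018; chromosome 2, 111878491 to 111926022, plus strand, 5 exon blocks) encodes BIM, which binds all main guards and is known to be held down by ERK and induced by FOXO factors. It had 789 counts with cabozantinib and 521 in DMSO, at 31.9 CPM with cabozantinib and 20.2 CPM in DMSO. BCL2L11 was 1.57-fold higher (1.41 to 1.76), and 93.2% of measured genes had a lower log2 ratio. The lower bound of the interval is under 1.5-fold, and scaled by total counts the log2 ratio was 0.57, just short of the call. In TPM it was 0.48, on the scale with the shift of -0.16.

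BMF (Entrez 90427; chromosome 15, 40380091 to 40401075, minus strand, 6 exon blocks) encodes a killer tied to the actin cytoskeleton. It had 71 counts with cabozantinib and 52 in DMSO, with a log2 ratio of 0.50 (-0.03 to 1.05). Its interval included 0 and reached up to 2.07-fold higher. Set against the summed guards within each library, BMF stood at 0.00359 with cabozantinib and 0.00222 in DMSO, a ratio 1.62-fold higher (1.13 to 2.31).

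**Figure D3:**
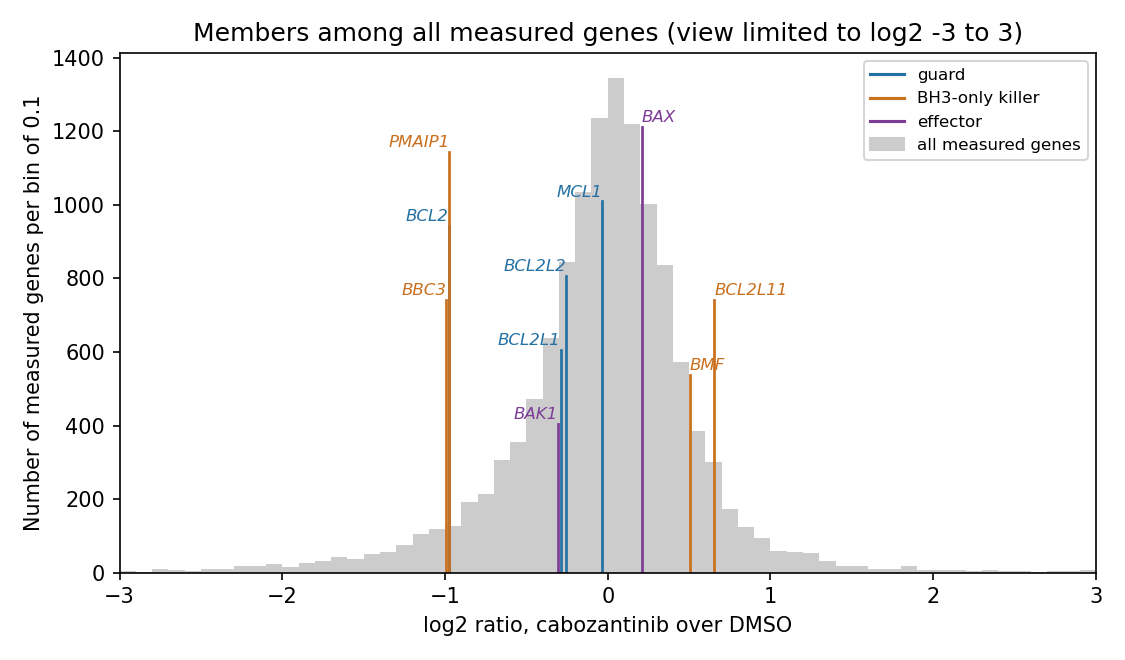
Histogram of log2 ratios of the 12536 measured genes in bins of 0.1, with a line for each member. BBC3, BCL2 and PMAIP1 stand together in the lower tail, BCL2L11 in the upper tail, and the other members within the bulk.

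The effectors went apart by small amounts, and neither was called. BAX (Entrez 581; chromosome 19, 49458117 to 49465055, plus strand, 7 exon blocks), which moves from the cytosol to mitochondria when activated, had 1394 counts with cabozantinib and 1255 in DMSO. Its log2 ratio was 0.21 (0.10 to 0.32). BAK1 (Entrez 578; chromosome 6, 33540323 to 33548070, minus strand, 6 exon blocks), which sits in the mitochondrial membrane from the outset, had 539 counts with cabozantinib and 694 in DMSO. Its log2 ratio was -0.31 (-0.47 to -0.14), and the intervals of the effectors did not overlap. The upstream bases of BAX, the most abundant non-guard, are shown because they hold 4 E-boxes.
BAX, chr19:48954625-48954874 (+): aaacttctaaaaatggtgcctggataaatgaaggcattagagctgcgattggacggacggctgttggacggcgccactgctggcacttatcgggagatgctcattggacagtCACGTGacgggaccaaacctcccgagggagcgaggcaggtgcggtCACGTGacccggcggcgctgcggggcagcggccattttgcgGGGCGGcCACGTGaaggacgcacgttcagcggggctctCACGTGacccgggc
The E-boxes begin 138, 93, 45 and 14 bases before the start. At least 1 such motif was held by 7.26% of all windows and by 2 of 10 member windows. No share of windows with 4 is given here. The other capitals are a GC box.

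The order of levels within a library put BCL2L1 at the top in both, followed by MCL1 and then BAX. With cabozantinib BCL2L2 followed at 28.9 TPM, then BBC3 at 24.6, PMAIP1 at 23.7, BAK1 at 18.5, BCL2L11 at 11.1, BMF at 1.12 and BCL2 at 0.352 TPM. In DMSO the place after BAX was held by BBC3 at 55.1 TPM, then came PMAIP1 at 52.5, BCL2L2 at 38.9, BAK1 at 25.8, BCL2L11 at 7.98, BMF at 0.888 and BCL2 at 0.787 TPM. BCL2L2 thus stood above BBC3 and PMAIP1 with cabozantinib and below them in DMSO. Neighbours with overlapping intervals were BBC3 and PMAIP1 in both libraries, and BMF and BCL2 in DMSO.

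The balance between classes was compared as ratios of TPM within a library, which do not depend on how the libraries are scaled to each other. In all, 11 ratios were computed. They share genes with each other and were chosen with earlier results of these data known, so they are not independent. Each of their 95% intervals for the log2 change excluded 0. Those intervals cover counting error only, and ratios of other gene pairs were not computed for comparison. Summed over the members, the guards stood at 312 TPM with cabozantinib and 400.0 TPM in DMSO, the BH3-only killers at 60.5 TPM with cabozantinib and 116 TPM in DMSO, and the effectors at 102 TPM with cabozantinib and 107 TPM in DMSO. BH3-only killers made up 12.8% of the members' TPM with cabozantinib and 18.7% in DMSO, and effectors 21.5% with cabozantinib and 17.2% in DMSO.

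The BH3-only killers came to 0.194 per guard transcript with cabozantinib (0.185 to 0.204) and 0.291 in DMSO (0.280 to 0.303), a log2 change of -0.59 (-0.68 to -0.50). BBC3 and PMAIP1 made up most of that sum. With the other family members added, above all the killer BID at 38.7 TPM with cabozantinib and 45.4 TPM in DMSO, the log2 change was -0.25. The effectors came to 0.326 per guard transcript with cabozantinib and 0.268 in DMSO, a log2 change of 0.29 (0.19 to 0.38).

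Single pairs moved both ways. NOXA and the guard it prefers gave 0.182 PMAIP1 transcripts per MCL1 transcript with cabozantinib (0.167 to 0.197) and 0.349 in DMSO (0.328 to 0.370), a 1.92-fold lower ratio. BBC3 per guard transcript was 0.0787 with cabozantinib and 0.138 in DMSO, 1.75-fold lower (1.59 to 1.92). BCL2L11 per guard transcript was 0.0357 with cabozantinib and 0.0199 in DMSO, 1.79-fold higher (1.60 to 2.01).

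Within the killer class BCL2L11, the member called higher, was set only against BBC3 and PMAIP1, both called lower. That these ratios changed more than those against the guards follows from that choice. There were 2.20 BBC3 transcripts per BCL2L11 transcript with cabozantinib and 6.91 in DMSO, so BCL2L11 over BBC3 was 3.13-fold higher (2.71 to 3.62). Against PMAIP1, BCL2L11 was 3.09-fold higher (2.67 to 3.58). BCL2L11 remained below BBC3 and PMAIP1 per length in both libraries. Among the guards, MCL1 over BCL2L1 was 0.857 with cabozantinib and 0.717 in DMSO, and among the effectors BAX over BAK1 was 4.52 with cabozantinib and 3.16 in DMSO.

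**Figure D4:**
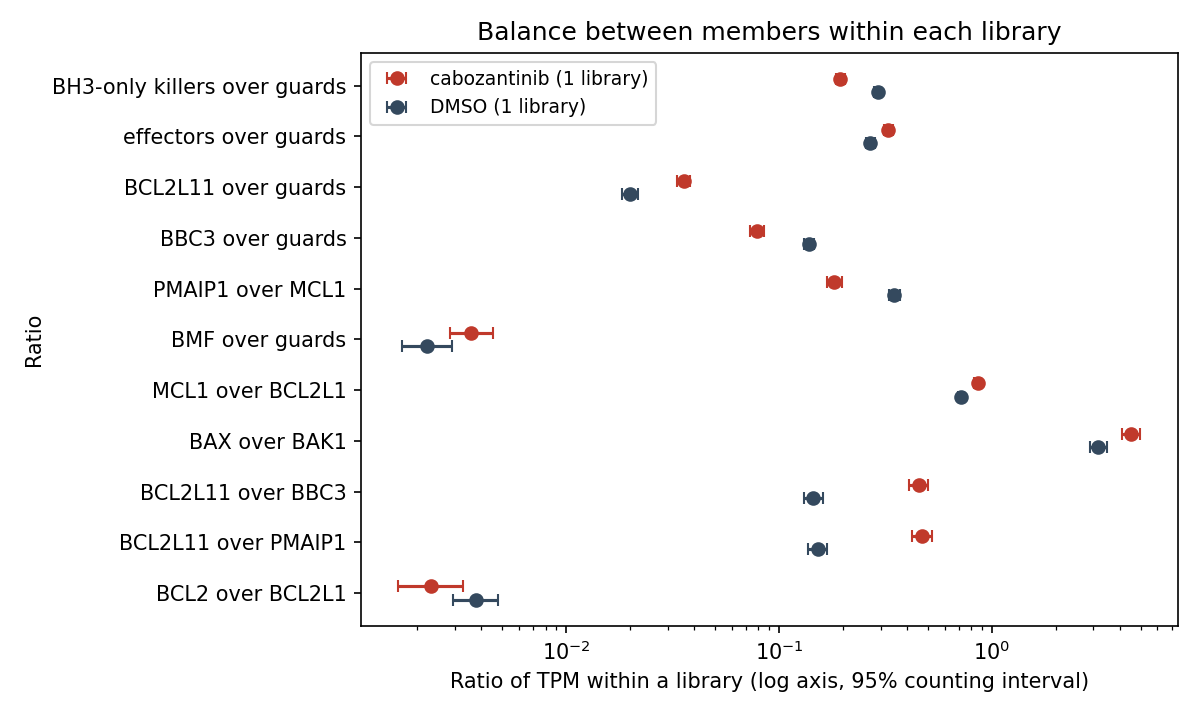
Ratios of TPM within each library on a log axis, cabozantinib above DMSO in each row, with 95% counting intervals. Of the 11 ratios computed, those of BCL2L11 to BBC3 and to PMAIP1 differ most between the libraries, 3.13-fold and 3.09-fold. Each sets the killer called higher against a killer called lower.

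The authors' deposited table lists all 10 members with a posterior probability of differential expression. That table, the authors' deposited table, has 17392 genes, and 4.66% of them reach 0.95, 1.39% as higher and 3.27% as lower. In the authors' deposited table BBC3 (0.986) and PMAIP1 (0.979) are past that value. BCL2, at 0.282 in the authors' deposited table, and BCL2L11, at 0.221, are not, although their shrunken ratios there, 0.505 and 1.57, are as far from 1 as the 1.5-fold rule asks. The remaining 6 members have posterior probabilities of at most 0.0324 in the authors' deposited table.

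Beyond the 10 members, 56 other genes of the pathway were listed in 8 groups, and 47 of them were measured. Of these, 2 were higher and 7 lower by the 1.5-fold rule, against 8.15% higher and 12.3% lower among all measured genes, and their median log2 ratio was 0.06. The other guards BCL2A1 and BCL2L10 and the killer HRK had 0 counts with cabozantinib and 0 in DMSO, and a count of 0 allows for up to 3. The killer BIK had 3 counts with cabozantinib and 2 in DMSO. The killers BID and BAD and the effector relative BOK were measured, with log2 ratios of -0.06, 0.23 and 0.01, and none was called. BCL2L2-PABPN1 was listed but not found among the 25702 genes, so it has no value here.

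Of 4 measured family relatives 1 was lower, against 12.3% of all measured genes. It was BCL2L13, a mitophagy receptor with BCL2 homology, with 3711 counts under cabozantinib and 6313 in DMSO, 1.64-fold lower (1.57 to 1.70). Another mitophagy receptor, BNIP3L, known for clearing mitochondria from maturing red cells, was not called, at a log2 ratio of -0.55 (-0.67 to -0.44), but passed 1.5-fold when scaled by total counts (-0.64).

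Of 13 genes listed for the apoptosome and mitochondrial release, 2 were lower and 0 higher, against 12.3% and 8.15% of all measured genes. The 2 lower genes were APAF1 and CASP9, which encode the scaffold and the initiator caspase of the apoptosome. APAF1 had 737 counts with cabozantinib and 1203 in DMSO, 1.57-fold lower (1.43 to 1.72), and CASP9 had 792 counts with cabozantinib and 1346 in DMSO, 1.63-fold lower with a log2 ratio of -0.71 (-0.84 to -0.58). Cytochrome c (CYCS), the trigger of that complex, had a log2 ratio of 0.02 (-0.01 to 0.05). The highest of the 13 was the caspase CASP6 at 0.48, not called.

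Of 5 measured inhibitors of apoptosis 1 was lower, against 12.3% of all measured genes. It was BIRC3, with 45 counts under cabozantinib and 87 in DMSO, 1.85-fold lower (1.28 to 2.73). XIAP, which blocks caspases directly, had a log2 ratio of -0.17 and BIRC5, which encodes survivin, one of 0.21. With log2 ratios of -0.03 to 0.24, 0 of 5 measured genes for the turnover of family proteins were called. Over all measured genes 20.5% were called in either direction. The 5 turnover genes include HUWE1 and FBXW7, ubiquitin ligases of MCL1, and USP9X, which removes its ubiquitin.

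Of 17 genes listed as regulators of the transcription of this family, 2 were higher and 3 lower, against 8.15% and 12.3% of all measured genes. The lower ones belong to the integrated stress response. DDIT3, which encodes CHOP, had 1116 counts with cabozantinib and 4072 in DMSO, 3.51-fold lower (3.28 to 3.75). ATF3 was 4.70-fold lower (4.27 to 5.19) and the pseudokinase TRIB3 5.04-fold lower (4.84 to 5.24), while ATF4 had a log2 ratio of -0.18. TP73, a relative of p53, was 2.30-fold higher (1.71 to 3.16) on 140 counts with cabozantinib and 63 in DMSO. FOXO1 was called higher on 55 counts with cabozantinib and 37 in DMSO, with an interval that starts at a log2 ratio of 0.00 and a call that other scalings end. Its more abundant relatives FOXO3 and FOXO4 had log2 ratios of -0.34 and 0.31, and STAT5A, STAT5B and GATA1 had 0.17, -0.34 and 0.39, none called.

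**Figure D5:**
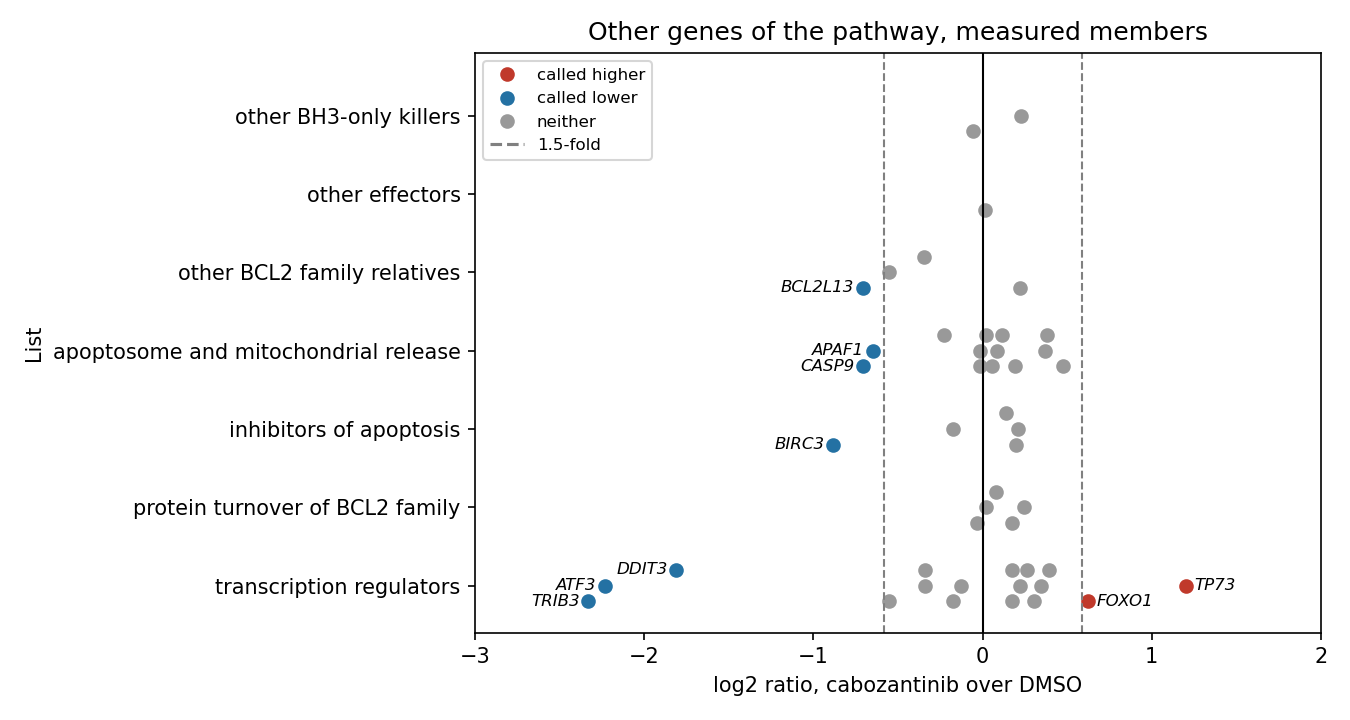
Log2 ratios of the 47 measured genes of the other pathway lists, cabozantinib over DMSO, with dashed lines at 1.5-fold and called genes named. APAF1 and CASP9 are the called genes of the apoptosome list, and DDIT3, ATF3 and TRIB3 lie farthest below 0.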

How the data were processed

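RNA from 1 cabozantinib culture and 1 DMSO culture of K562 was analysed, grouped by the treatment label. The deposited files hold raw counts per Entrez gene from reads aligned with Rsubread to hg19, per the file headers, and GRCh37 is named too in the submitters' processing notes. Their strand setting is not stated in the sources used here. The authors' deposited comparison holds a posterior probability per gene, a score from 0 to 1, and fold ratios, whose direction was read from the labelled counts. No source used here names its tool, and 4 columns of values with no sample label were not used.

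Counts were scaled with TMM (edgeR 4.0.16, R 4.3.3), with factors of 0.971 for cabozantinib and 1.03 for DMSO. Log2 ratios used counts plus 0.5. Intervals of count ratios are Clopper-Pearson, those of levels exact Poisson, and those of class ratios a delta-method approximation, all at 95%. Python 3.11.15, numpy 2.4.6, scipy 1.17.1 and pandas 2.3.3 were used. The intervals of count ratios were tested on counts simulated with Poisson error only, which cannot show how they hold for the spread between cultures. Alternatives covered scaling (DESeq2 1.42.0 among them), pseudocount, filter, threshold, deposited values, TPM and the make-up of class sums. Promoters are from RefSeq, GRCh38.p14. All 10 members are named, and of the other lists the called genes, with others as examples chosen after their values were seen. Members, lists and ratios were chosen with earlier results of these data known.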

Additional observations from a re-analysis of the deposited data

How the results depend on the processing

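Each member's log2 ratio was recomputed under 8 alternatives. No direction changed, and 78 of 80 recomputed ratios kept their side of the 1.5-fold rule. The others were those of BCL2L11, at 0.57 scaled by total counts and 0.48 in TPM, where its call was lost because the whole scale shifts down. BBC3 ranged from -1.17 to -0.99, PMAIP1 from -1.15 to -0.97 and BCL2 from -1.16 to -0.88. The count of members higher was 0 scaled by total counts, 0 at a 2-fold threshold and 0 by the authors' deposited posterior probability, and the count lower was 0 at 2-fold with TMM. With a filter of 5 CPM the scarce BCL2 and BMF are left out. In the other lists 1 gene, TP73, was higher instead of 2 under total counts, DESeq2 size factors, upper quartile, totals without globin and mitochondrial genes, a pseudocount of 5, the 2-fold threshold and the filter of 5 CPM, and at 2-fold 3 were lower instead of 7. There were 6 lower with the filter of 5 CPM, and 9 under total counts and under totals without globin and mitochondrial genes, where BNIP3L (-0.64 and -0.59) and STAT3 (-0.64 and -0.59) passed too. Over all measured genes 340 were higher and 722 lower at 2-fold, and 1022 lower with the filter of 5 CPM. Scaled by total counts, 757 genes were higher and 1824 lower, against 1022 and 1543 with TMM.

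The log2 change of BH3-only killers over guards was -0.37 in CPM without length, -0.48 without MCL1 and -0.25 with the other family members. That of effectors over guards was 0.39 without MCL1. Low counts limit BCL2, BMF, BIRC3 and FOXO1. No paired analysis was possible because each group holds 1 library, and for the same reason no library could be left out.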
